A study of Mus musculus with 8 samples.

Results

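The regulators of the epithelial-mesenchymal transition described here are 10 genes, chosen by symbol: Snai1, Snai2, Twist1, Twist2, Zeb1, Zeb2, Prrx1, Ovol1, Grhl2 and Esrp1. All 10 were found among the 54838 genes listed for each library. RNA-seq was made from 8 cultures of mouse hepatocellular carcinoma cells of the 3H3 line, which came from a liver tumour of a C57BL/6 mouse lacking MC4R and kept on a high-fat diet and which carries HrasQ61L. All 8 libraries share that origin, and in all of them Trp53 was knocked out with CRISPR/Cas9. The labels report a frameshift in that gene and loss of p53 protein. The first group, 3H3P, is this knockout line without further change and had 1 library. The second group, 3H3PM, is the same line with ectopic MYC, grown as tumours in nude mice, which lack T cells but keep other host cells. It had 7 libraries, 1 for each of the subclones numbered 1, 2, 3, 6, 7, 8 and 9 that were isolated from those tumours and cultured. Subclones 4 and 5 were not analysed here. MYC, passage through a mouse and subcloning separate the groups together and cannot be told apart.

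In the epithelial-mesenchymal transition, cells give up junctions and keratins and take on a mesenchymal, motile shape, and in carcinoma the process is studied for its part in invasion. Snail (Snai1) and Slug (Snai2), the zinc-finger homeobox proteins Zeb1 and Zeb2, and the basic helix-loop-helix proteins Twist1 and Twist2 drive the change, the first 4 mainly by repressing epithelial genes such as Cdh1 through E-box sequences. Prrx1 is a mesenchymal homeobox factor. Ovol1 and Grhl2 are transcription factors that hold cells in the epithelial state, and Esrp1 is an RNA-binding protein that directs epithelial splicing.

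Snail and Zeb proteins bind the E-box hexamer CAGGTG, which reads CACCTG on the other strand. The stretches that follow are the 250 bases before the RefSeq start site (GRCm38.p6) of Snai1 and of the 4 called junction or keratin genes with the smallest p that held the hexamer there. They were picked for holding the hexamer, to show where it stands in genes whose levels are described further on, and binding was not measured. Cldn1, the called gene of that list with the smallest p, had no hexamer in its window. Capitals mark the hexamer, and each line runs 5′ to 3′ on the gene's own strand.
Snai1, chr2:167537945-167538194, plus strand, hexamer 126 bases upstream: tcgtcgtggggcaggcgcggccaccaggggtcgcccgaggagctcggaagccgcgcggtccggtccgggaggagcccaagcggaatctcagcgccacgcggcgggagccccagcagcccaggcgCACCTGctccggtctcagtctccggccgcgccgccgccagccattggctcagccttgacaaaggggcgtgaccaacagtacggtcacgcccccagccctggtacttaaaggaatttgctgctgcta
Tjp3, chr10:81291582-81291831, minus strand, 108 bases upstream: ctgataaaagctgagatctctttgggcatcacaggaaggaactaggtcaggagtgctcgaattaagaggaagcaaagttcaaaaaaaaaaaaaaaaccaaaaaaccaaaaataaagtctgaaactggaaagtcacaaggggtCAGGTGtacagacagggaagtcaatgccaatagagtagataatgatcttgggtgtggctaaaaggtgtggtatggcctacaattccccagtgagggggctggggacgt
Krt18, chr15:102027966-102028215, plus strand, 214 bases upstream: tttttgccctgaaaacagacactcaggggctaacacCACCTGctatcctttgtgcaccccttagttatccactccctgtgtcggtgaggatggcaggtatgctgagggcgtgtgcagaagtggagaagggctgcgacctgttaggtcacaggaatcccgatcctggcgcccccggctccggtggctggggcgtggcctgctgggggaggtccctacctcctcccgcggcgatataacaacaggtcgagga
Krt8, chr15:102004343-102004592, minus strand, 111 bases upstream: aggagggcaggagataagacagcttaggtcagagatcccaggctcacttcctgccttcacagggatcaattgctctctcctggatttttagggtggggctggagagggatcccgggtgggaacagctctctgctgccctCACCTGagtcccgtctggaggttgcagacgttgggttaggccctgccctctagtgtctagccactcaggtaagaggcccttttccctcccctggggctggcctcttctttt
F11r, chr1:171437311-171437560, plus strand, 122 bases upstream: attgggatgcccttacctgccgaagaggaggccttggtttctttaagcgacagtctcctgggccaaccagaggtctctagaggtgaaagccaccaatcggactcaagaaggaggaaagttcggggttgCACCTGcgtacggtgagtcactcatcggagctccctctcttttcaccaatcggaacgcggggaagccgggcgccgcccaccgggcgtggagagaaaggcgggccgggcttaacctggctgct

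Library totals ran from 12838521 to 17987068 expected counts. Levels are given as CPM, counts scaled to library size after TMM correction, or as TPM, which also divides by transcript length and so allows genes to be compared. Trp53 was at 212 CPM in the 3H3P-labelled library and 46.7 to 66.6 CPM in the subclones, which does not check the knockout because a frameshift need not remove a transcript. Mouse Myc was at 85.2 CPM in that library and 3.57 to 11.6 CPM in the subclones, the opposite of the labelled overexpression, and no label names the species of the introduced MYC. Group names are therefore used as labels. Hepatocyte markers summed to 2038 CPM in the 3H3P-labelled library, with 9 of 15 at 1 CPM or more, and to 17.3 to 74.5 CPM in the subclones. At least 1 subclone held 1 CPM or more for 8 of the 15. Of the 15 genes 10 were tested, 5 fell and 0 rose, where 11.8% of all tested genes fell and 7.33% rose. Afp of the same list went the other way without being called (edgeR adjusted p = 0.408). It was at 0.311 CPM in the 3H3P-labelled library and 0.319 to 5.95 CPM in the subclones, higher in 7 of 7. Trf, the transferrin gene, was at 688 CPM and the urea cycle gene Ass1 at 661 CPM in that library, against means of 10.7 and 33.8 CPM in the subclones. Cps1 had 0 counts in every library, Alb was at 3.67 CPM in the 3H3P-labelled library and at most 2.08 CPM in a subclone, and Apob fell from 586 to 1.56 ± 2.48 CPM (SD, n = 7, edgeR adjusted p = 0.000968). In cultures such as these, fewer expressing cells and less RNA per cell cannot be told apart.

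The regulators with the highest levels were different ones in each group. By TPM, the 3H3P-labelled library held mainly Zeb2 and Zeb1 with some Snai2, whereas the subclones held mainly Snai1 and Twist2. In the 3H3P-labelled library Snai1 was at 1.23 TPM and Twist2 at 0.29 TPM. The 7 factors of the mesenchymal side summed to 43.2 TPM in the 3H3P-labelled library, and Zeb1 with Zeb2 made up 84.2% of it and Snai1 with Twist2 3.52%. In the subclones the sum was 73.0 to 118 TPM (median 98.1). Snai1 with Twist2 made up 60.0% to 83.9% of it (median 71.6%), and Zeb1 with Zeb2 16.1% to 39.9% (median 21.5%). These shares are a description and were not tested.

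**Figure D1:**
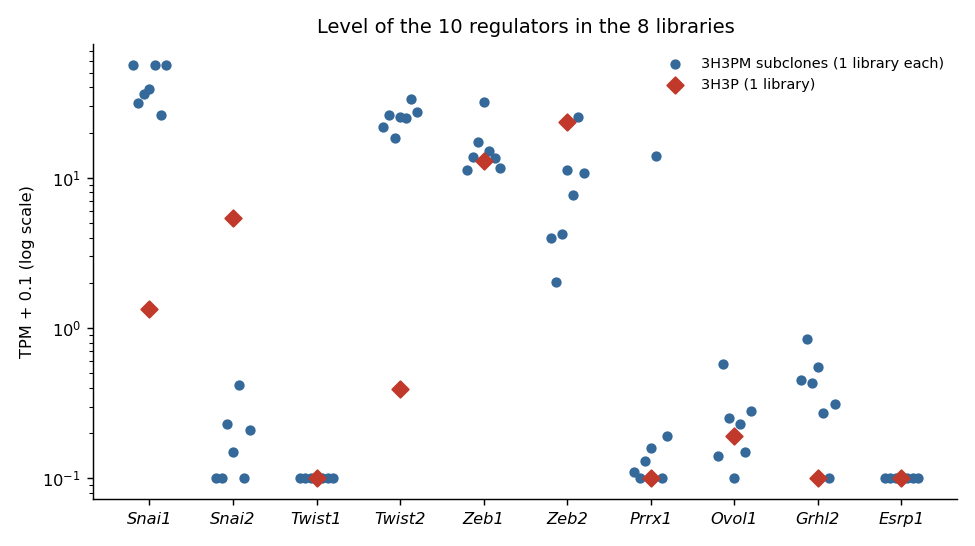
TPM plus 0.1 on a log axis for each of the 10 genes, with 1 point per library (diamond, the 3H3P-labelled library; circles, the 7 subclones). Snai1 and Twist2 lie far above the diamond in every subclone, Snai2 lies below it in every subclone, and Twist1 and Esrp1 sit at 0 TPM in all 8 libraries.

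In a test across all genes, 8 of the 10 regulators had enough counts to enter. Snai1 and Twist2 rose and Snai2 fell (edgeR quasi-likelihood F test, Benjamini-Hochberg adjusted p under 0.05). Of all 14634 tested genes, 7.33% rose and 11.8% fell. Both Snai1 and Twist2 were higher in each subclone than in the 3H3P-labelled library, as were 27.1% of tested genes, and Snai2 and Zeb2 were lower in each, as were 30.4%. These 4 regulators lay outside the range in 1 direction or the other, as did 57.4% of tested genes. The single 3H3P library gives no measure of its own spread, so the test borrows that of the subclones. An exact permutation test of 1 library against 7, which was not run, cannot go below p = 0.125, or 0.25 where the one-sided p is doubled.

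Snai1 (ENSMUSG00000042821.7, GRCm38 chromosome 2, 167538195 to 167542814), which encodes Snail, went from a trace to the most abundant of the 10 by median TPM. It had 20 counts in the 3H3P-labelled library, or 1.24 CPM. The subclones held 345 to 898 counts, with a lowest value of 25.6, a median of 38.5 and a highest of 53.2 CPM. Subclones 1, 7 and 9 were close together at 53.2, 52.7 and 53.0 CPM, and subclone 8 was the lowest. The groups did not overlap. The mean was 41.3 ± 11.6 CPM (SD, n = 7), a log2 fold change of 5.04 (SE 0.60, edgeR adjusted p = 0.000933, higher in 7 of 7 subclones). By counting error alone the ratio of the pooled subclones to the 3H3P-labelled library was 35.0, with a 95% exact binomial interval of 22.6 to 57.3.

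Snai2 (ENSMUSG00000022676.7, chromosome 16, 14705852 to 14709385), the paralogue that encodes Slug, moved the other way. The 3H3P-labelled library had 112 counts (6.97 CPM, 5.33 TPM), and all subclones together had 11. Subclones 1, 2 and 8 had 0 counts, which at their depth allows up to 0.178, 0.192 and 0.222 CPM. The highest, subclone 7, had 5 counts (0.382 CPM). The groups did not overlap, and the fall was 5.95 on the log2 scale (SE 0.97, edgeR adjusted p = 0.00396, lower in 7 of 7 subclones). With so few counts in the subclones its size is imprecise. The ratio in favour of the 3H3P-labelled library was 64.1, with a 95% counting interval of 34.5 to 132. Snai2 entered the test through that library alone, so the fall concerns a gene that was itself low there.

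The Twist pair also split, since only Twist2 had counts. Twist1 (ENSMUSG00000035799.6, chromosome 12, 33957671 to 33959829) had 0 counts in all 8 libraries, which allows at most 0.165 to 0.229 CPM per library. Twist2 (ENSMUSG00000007805.4, chromosome 1, 91801461 to 91848028) had 4.92 expected counts in the 3H3P-labelled library (0.311 CPM) and 238 to 348 in the subclones. In CPM the subclones had a lowest value of 14.4 in subclone 3, a median of 19.9 and a highest of 25.8 in subclone 8. The groups did not overlap. Its log2 fold change was 5.91 (SE 0.51, edgeR adjusted p = 0.000222, higher in 7 of 7 subclones), at a mean of 19.2 ± 3.62 CPM (SD, n = 7). Its counts were fractional in all 8 libraries, so some of its reads were divided with other genes. Twist2 entered the test through the subclones alone, and its log2 fold change ran from 4.33 to 6.00 over the alternatives.

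Spread over the subclones differed between these 2 risers. The SD of log2 CPM (prior count 2) was 0.27 for Twist2 and 0.43 for Snai1, against a median of 0.28 over the 12378 genes that averaged at least 1 CPM. Highest over lowest CPM was 1.79-fold for Twist2 and 2.08-fold for Snai1. Subclone 8 held the highest Twist2 and the lowest Snai1, and there alone Twist2 exceeded Snai1 in TPM (33.2 against 26.1).

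**Figure D2:**
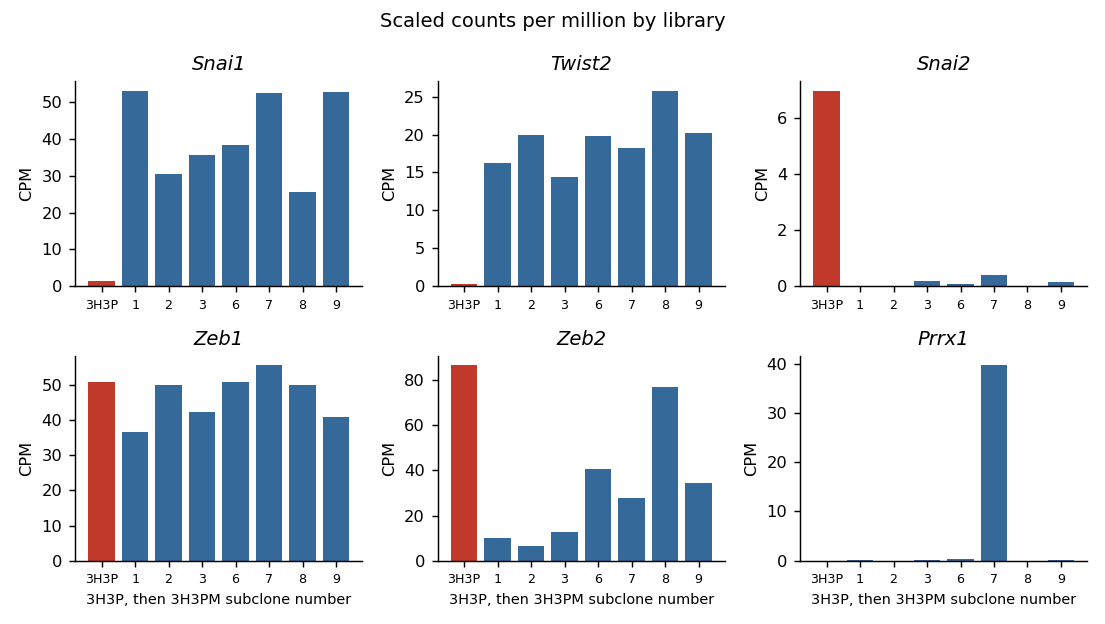
TMM-scaled CPM of 6 regulators in each library (bars from 0; first bar, the 3H3P-labelled library; then subclones by number). Snai1 and Twist2 are high in all 7 subclones, Snai2 only in the 3H3P-labelled library, Zeb1 is level, Zeb2 is uneven from 6.45 to 77.0 CPM over the subclones, and Prrx1 stands at 39.6 CPM in subclone 7 alone.

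Zeb1 and Zeb2, the 2 Zeb genes, were expressed in every library and neither passed the test. Zeb1 (ENSMUSG00000024238.15, chromosome 18, 5591860 to 5775467) was the steadiest of the expressed regulators. It was at 50.8 CPM in the 3H3P-labelled library and at 36.7, 50.1 and 55.7 CPM as lowest, median and highest of the subclones. The groups overlapped, with 2 subclones above that library and 5 below it (log2 fold change −0.12, SE 0.23, edgeR adjusted p = 0.747). Its SD of log2 CPM, 0.21, was lower than that of 68.2% of genes.

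Zeb1 was less even in TPM, and its deposited transcript length differed between libraries. The deposited length of a gene is the mean over its transcripts, weighted by their estimated abundance, and the 12 annotated Zeb1 transcripts run from 266 to 5801 bases. That mean was 5615 bases in the 3H3P-labelled library and 5069 to 5709 bases in subclones 1, 2, 7, 8 and 9. It was 3648 bases in subclone 3 and 2475 bases in subclone 6. Subclone 6 had 31.9 TPM, against 11.1 to 17.3 TPM in the other subclones and 12.9 TPM in the 3H3P-labelled library, although its 50.9 CPM lay within the range of the other libraries. Which transcripts gave the short mean cannot be read from gene-level files.

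**Figure D3:**
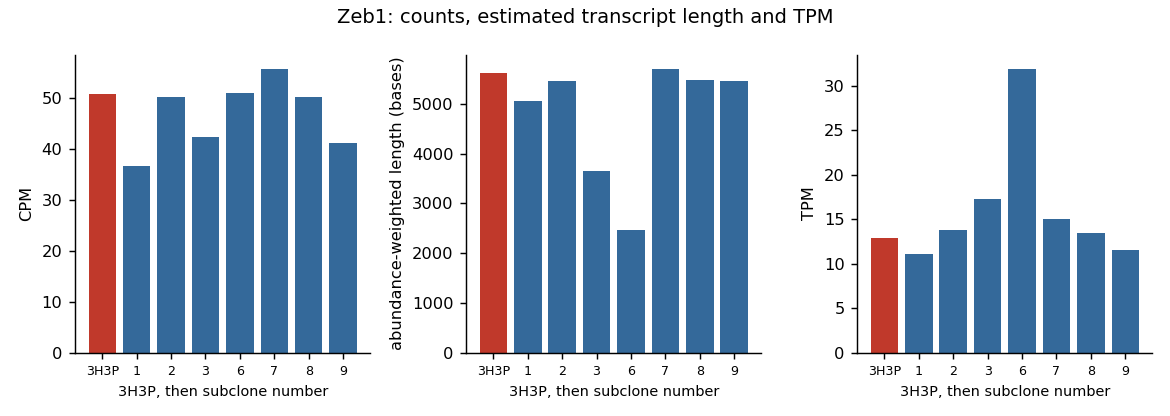
Zeb1 in each library as TMM-scaled CPM, abundance-weighted transcript length in bases, and TPM (bars from 0). Subclones 3 and 6 have short mean lengths of 3648 and 2475 bases, and the TPM of subclone 6 stands at 31.9 while its 50.9 CPM lies within the range of the other libraries.

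Zeb2 (ENSMUSG00000026872.17, chromosome 2, 44983632 to 45117395) varied most between subclones among the regulators that every library expressed. It was at 86.6 CPM in the 3H3P-labelled library, above all subclones. Subclones 1, 2 and 3 were low at 10.0, 6.45 and 12.8 CPM. Subclones 7, 9 and 6 were intermediate at 27.7, 34.3 and 40.5 CPM, and subclone 8 reached 77.0 CPM. The highest was 11.9-fold over the lowest, and the SD of log2 CPM, 1.26, exceeded that of 95.5% of genes. The mean of 29.8 ± 24.5 CPM (SD, n = 7) gave a log2 fold change of −1.54 (SE 0.93) that missed the threshold (edgeR adjusted p = 0.274), and 0.0916 to 0.386 over the alternatives. In TPM subclone 8, at 25.4, stood slightly above the 3H3P-labelled library, at 23.5, so the groups did overlap on that scale.

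The balance of the Zeb pair also varied. By CPM, Zeb1 was 0.587 times Zeb2 in the 3H3P-labelled library. Zeb1 exceeded Zeb2 in subclones 1, 2, 3, 6, 7 and 9, by a ratio of 1.20 in subclone 9 up to 7.78 in subclone 2. Only in subclone 8, at 0.651, was Zeb2 the higher, as in the 3H3P-labelled library. These ratios compare read counts and are not corrected for length.

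Prrx1 (ENSMUSG00000026586.16, chromosome 1, 163245119 to 163313710) had more than 4 counts in 1 library only. Subclone 7 had 519 counts, or 39.6 CPM and 13.9 TPM. The 3H3P-labelled library and subclones 2 and 8 had 0 counts, subclones 1 and 9 had 1 each, subclone 3 had 2 and subclone 6 had 4. Against the floor of 3 counts in the 3H3P-labelled library, subclone 7 was at least 212-fold higher. The group difference did not pass the test (edgeR adjusted p = 0.429), and without subclone 7 the gene had too few counts to be tested. Subclone 7 lay within the range of the other subclones for Snai1, Twist2 and Zeb2, and it had the highest Zeb1 at 55.7 CPM.

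The 3 members of the epithelial side had at most 33 counts in any library. Esrp1 (ENSMUSG00000040728.15, chromosome 4, 11331933 to 11386783) had 0 counts in all 8 libraries. Grhl2 (ENSMUSG00000022286.16, chromosome 15, 37233036 to 37363569) had 0 counts in the 3H3P-labelled library and in subclone 8, and 4 to 33 in the others, with the highest in subclone 2 at 2.11 CPM. It was at least 3.62-fold higher in the mean of the subclones than the floor of 3 counts in the 3H3P-labelled library, without passing the test (edgeR adjusted p = 0.167). Without subclone 2, left out after its value was seen, that bound was 2.34-fold. Ovol1 (ENSMUSG00000024922.1) had 2.83 expected counts in that library and 0 to 14.1 in the subclones, again highest in subclone 2, and the groups overlapped (edgeR adjusted p = 0.856). Its counts were fractional in 6 libraries. Cdh1, the E-cadherin gene, was at 527 CPM in the 3H3P-labelled library. In the same library Esrp1 and Grhl2 had 0 counts and Zeb1 and Zeb2 were at 50.8 and 86.6 CPM. How these levels relate was not tested.

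Ordered by TPM, the 3H3P-labelled library had Zeb2 at 23.5, Zeb1 at 12.9, Snai2 at 5.33, Snai1 at 1.23 and Twist2 at 0.29. Subclone medians ran from Snai1 at 39.1 through Twist2 at 25.5 and Zeb1 at 13.7 to Zeb2 at 7.64, with all other members at 0.33 or less. Neighbours in that order overlapped in range. Snai1 spanned 26.1 to 56.6 TPM and Twist2 18.3 to 33.2, and Zeb1 spanned 11.1 to 31.9 and Zeb2 1.93 to 25.4. Zeb2 and the next member, Grhl2, whose highest value was 0.74, did not overlap.

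The genes whose pattern lay closest to those of Snai1 and Twist2 were sought by the root mean square difference of log2 CPM, centred over the 8 libraries, among 11329 genes. For Snai1 these were Tcf7l1 at 0.33, the ion channel gene Trpv4 at 0.35 and the purinergic receptor gene P2rx7 at 0.42. For Twist2 they were Echdc2 at 0.31, Gfod1 at 0.32 and Tgfb1i1, which encodes the focal adhesion protein Hic-5, at 0.36. All 6 were low in the 3H3P-labelled library, at 0.124 to 2.74 CPM. This follows from how they were chosen, since that library entered the difference, and is not a separate result.

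Across the 7 subclones Zeb2 moved with Il11, the cytokine named in the title of the series, and with Vim, which encodes the mesenchymal filament protein vimentin. Il11 was at 0.831 CPM in subclone 2, where Zeb2 was lowest, at 15.2 in subclone 6 and at 31.1 in subclone 8, the 2 subclones where Zeb2 was highest. Vim ran from 641 CPM in subclone 2 to 1589 in subclone 6 and 2367 in subclone 8. Over log2 CPM Pearson's r was 0.881 for Il11 (exact permutation p = 0.00496, adjusted 0.0333) and 0.878 for Vim (exact permutation p = 0.00556, adjusted 0.0333). Spearman's rho was 0.893 for both (exact permutation p = 0.0123, adjusted 0.0738), so the rank measure missed the threshold after adjustment. These were 2 of 12 relations computed, of Snai1, Twist2, Zeb1 and Zeb2 with Il11, Cdh1 and Vim, and they were chosen after the values were seen.

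Without subclones 2 and 8, the 2 farthest from the median of Zeb2, r was 0.609 for Il11 (exact permutation p = 0.217, n = 5) and 0.686 for Vim (exact permutation p = 0.200, n = 5). Neither relation passed with 5 subclones, while r stayed positive. Leaving out the extremes of Zeb2 narrows its range and leaves fewer values, so this cannot show what the calls rest on. Without subclones 6 and 8, the 2 with high Il11, r was 0.728 for Il11 and 0.746 for Vim (n = 5), and these values were not tested. The other 10 relations had r from −0.573 to 0.639 and adjusted exact permutation p of 0.472 to 0.865. The 3H3P-labelled library does not lie on the Il11 relation, having the highest Zeb2 and only 0.124 CPM of Il11.

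**Figure D4:**
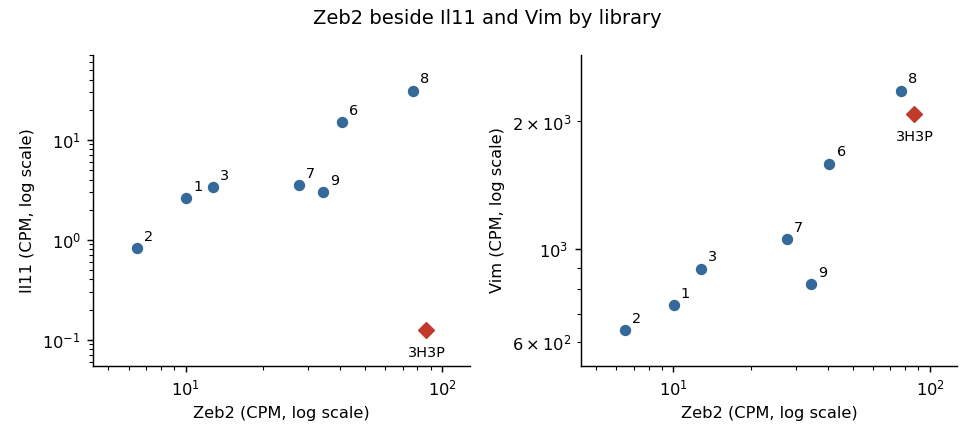
CPM of Il11 and of Vim against CPM of Zeb2, log axes, 1 point per library (circles, subclones by number; diamond, the 3H3P-labelled library). Subclone 2 is lowest and subclone 8 highest of the subclones on every axis, and the 3H3P-labelled library has 86.6 CPM of Zeb2 with 0.124 CPM of Il11.

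Junction, keratin and polarity genes include many that Snail, Zeb and Twist proteins are known to repress. Of 32 such genes 23 were tested, 14 fell and 0 rose, where 11.8% of all tested genes fell and 7.33% rose, with a median log2 fold change of −1.93 against 0.03 for all tested genes. Cdh1 fell from 527 to 34.3 ± 24.8 CPM (SD, n = 7, log2 fold change −3.94, SE 0.63, edgeR adjusted p = 0.00363). Of the other genes, the tight-junction genes Cldn1 and Tjp3 fell, with log2 fold changes of −10.12 and −6.22, as did the keratin genes Krt8 at −4.20 and Krt18 at −3.25. Cldn1 had 6 counts over all subclones and entered the test through the 3H3P-labelled library alone. The size of its fall is imprecise, with log2 fold changes of −10.75 to −5.03 over the alternatives. Epcam and Cldn3 had 0 counts in all 8 libraries and were not tested, and 9 tested genes did not pass, among them Pkp3, Patj and Spint1 with positive log2 fold changes. On log2(TPM + 0.1) limma called 9 of the list lower. In the 3H3P-labelled library Cdh1, Cldn1, Tjp3, Krt8 and Krt18 were at 527, 71.9, 48.2, 543 and 690 CPM. Whether any regulator acts on these genes was not tested.

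Of the 14 that fell, 10 had a promoter window of 300 bases (250 before and 50 after the start) in the RefSeq table. Among these 10 genes, 7 held CAGGTG or CACCTG, against 22.6% of all 27025 genes with a window. Over the whole list 22 of 29 windows held it (75.9%), against 20.2% of all 32851 windows of that length. The genes that fell had it in 10 of 13 windows (76.9%), near the share of the whole list. The list consists of well-studied repression targets and its windows are richer in G and C (median 61.0% against 52.7%), so these shares are descriptions. Of the 8 windows of 5 regulators in the table, the Snai1 window alone held the hexamer.

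Of 26 mesenchymal genes 22 were tested, 1 rose and 2 fell. These shares were no larger than the 7.33% and 11.8% over all tested genes, with a median log2 fold change of 0.27. Pdgfrb, a growth factor receptor gene, rose by 7.24 on the log2 scale. The N-cadherin gene Cdh2 fell, with a log2 fold change of −4.11, and so did the receptor gene Axl at −1.64. Vim was at 2081 CPM in the 3H3P-labelled library and 1158 ± 617 CPM in the subclones (SD, n = 7), and did not pass (edgeR adjusted p = 0.331). Cdh2 was not called on the TPM scale (limma adjusted p = 0.103 with a pseudocount of 0.1 and 0.0515 with 1).

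**Figure D5:**
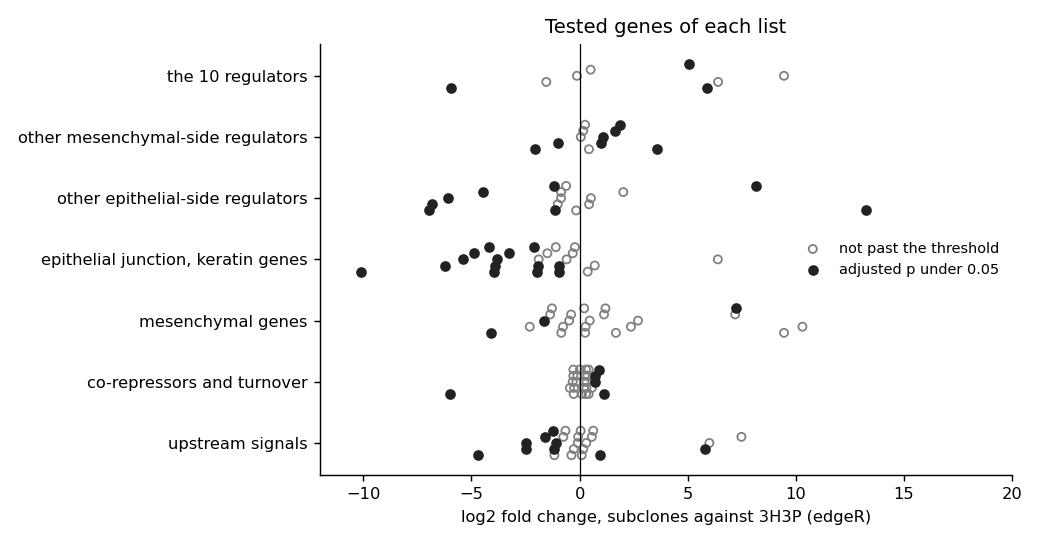
Fitted log2 fold change of the subclones against the 3H3P-labelled library for each tested gene of 7 lists (filled, adjusted p under 0.05; open, not). Called junction and keratin genes lie on the left only, whereas called mesenchymal genes lie on both sides; values of genes with 0 counts in a group depend on the prior count.

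Among 16 further regulators of the mesenchymal side, 11 were tested, 5 rose and 2 fell, where 7.33% of all tested genes rose and 11.8% fell. The forkhead gene Foxc1 rose most clearly, from 18.9 to 223 ± 31.1 CPM (SD, n = 7, log2 fold change 3.56, edgeR adjusted p = 0.00015). Tcf3 and Tcf4, whose E proteins pair with Twist, rose by 1.01 and 1.07. Prrx2, a paralogue of Prrx1, rose by 1.86 (edgeR adjusted p = 0.0353) and was called in 10 of 15 alternatives (adjusted p 0.00130 to 0.0860). Runx2 and the chromatin gene Hmga2 fell, with log2 fold changes of −0.98 and −2.08. Of 15 alternatives, 6 called Hmga2. With all 8 libraries kept, its call was lost under library size alone, upper-quartile scaling and both TPM scales. The call of Hmga2 was lost without subclone 1, 3, 6, 7 or 9 (edgeR adjusted p up to 0.0677, and 0.0190 to 0.147 over all alternatives), and Runx2 was not called on the TPM scale (limma adjusted p up to 0.0548).

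Of 19 further factors of the epithelial side, 16 were tested, 6 fell and 2 rose, where 11.8% of all tested genes fell and 7.33% rose. The epithelial factor gene Ehf fell by 6.95 on the log2 scale, from 248 CPM. The liver factor genes Foxa2 and Hnf4a fell too, with log2 fold changes of −6.83 and −6.09. In the other direction Grhl3, a paralogue of Grhl2, and Foxa1 had 0 counts in the 3H3P-labelled library and were at least 12.6-fold and 429-fold higher in the subclones against 3 counts in that library (edgeR adjusted p = 0.0170 and 0.0210). Limma-voom called neither (adjusted p = 0.0694 and 0.453), and Grhl3 was not called on log2(TPM + 1) either (limma adjusted p = 0.141). Over all alternatives the lowest adjusted p was 0.00491 for Grhl3 and 4.43e-06 for Foxa1. Esrp2, the paralogue of Esrp1, was at 25.5 CPM in the 3H3P-labelled library and 18.1 to 54.7 CPM in the subclones and did not pass (edgeR adjusted p = 0.520). Where Esrp1 and Grhl2 were at or near 0, Grhl3 was thus detected in 7 of 7 subclones, at 1.09 to 5.68 CPM. Grhl1, a further paralogue of Grhl2, also had counts in 7 of 7 subclones, at 0.917 to 15.2 CPM. It was at 1.74 CPM in the 3H3P-labelled library and was not called.

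Of the co-repressors and turnover factors of Snail and Zeb, all 26 were tested, 4 rose and 1 fell, with a median log2 fold change of 0.23. Over all tested genes 7.33% rose and 11.8% fell. Kdm1a, the histone demethylase recruited by Snail, rose by 1.11, its partner Rcor1 by 0.91, the deacetylase gene Hdac1 by 0.73 and Sin3a by 0.70. Sin3a lost its call without subclone 3 or 9 (edgeR adjusted p = 0.0594 and 0.0563; 0.00622 to 0.0594 over all alternatives). Pak1, a kinase that phosphorylates Snail, fell by 6.01 on the log2 scale, from 55.4 CPM to 0.861 ± 0.692 CPM (SD, n = 7).

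Among 25 genes of upstream signals, 24 were tested, 7 fell and 2 rose, where 11.8% of all tested genes fell and 7.33% rose. Tgfbr1 and Tgfbr2, the receptors through which TGF-beta induces these regulators, fell, with log2 fold changes of −1.23 and −1.16, and Ctnnb1, the beta-catenin gene, fell by 1.10. Wnt5a had 15 counts in the 3H3P-labelled library against 3 in the pooled subclones, and like Snai2 it entered the test through that library alone. Its level was 31.5 times higher there (95% counting interval 8.91 to 170), but DESeq2 did not call it (adjusted p = 0.270; 0.00339 to 0.270 over all alternatives). Notch2 rose by 0.97 and the receptor gene Fgfr1 by 5.81. Notch2 lost its call without subclone 1, 2, 6, 7 or 9 (edgeR adjusted p up to 0.0641; 0.00947 to 0.0641 over all alternatives) and Fgfr1 without subclone 1, 2, 3, 6 or 7 (edgeR adjusted p up to 0.0704; 0.000178 to 0.323 over all alternatives).

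Because the subclones came from tumours in mice, markers of host cells were set beside these values. Their counts of called genes stand against 7.33% rising and 11.8% falling over all tested genes. Of 15 fibroblast and stellate cell markers 8 were tested, 1 rose and 1 fell, and their summed level was 121 CPM in the 3H3P-labelled library and 104 to 503 CPM in the subclones. Pdgfrb and Pdgfra made up 81.3% to 99.1% of it in the subclones. Pdgfra was at 175 CPM in subclone 6 and 348.7 CPM in subclone 8, the 2 with the highest Zeb2 and Il11, and at 2.13 to 11.6 CPM in the other subclones. Col3a1 and Postn had 0 counts in the 3H3P-labelled library and 562 and 120 over the subclones, with counts in 6 of 7 each, and Col1a1 was higher in 6 of 7, none of them called. Lum, Lrat and Dpt had 0 counts in all 8 libraries, and Dcn had 1868 counts in the 3H3P-labelled library and 1 over all subclones. Endothelial markers summed to 4.23 CPM and 1.66 to 4.91 CPM, with 3 of 10 tested and 0 called, and Cdh5 at 0 counts in the subclones. Pecam1 of the same list had 0 counts in the 3H3P-labelled library and 48 over the subclones, with counts in 7 of 7 (edgeR adjusted p = 0.0707, called in 1 of the 11 alternatives that tested it). Macrophage markers summed to 21.3 CPM and 10.4 to 31.1 CPM, with 4 of 10 tested, 0 rising and 1, Mrc1, falling, and Ptprc had 3 counts over all subclones. Mrc1, like Dcn, entered the test through the 3H3P-labelled library alone. Csf1r was at 11.5 CPM in that library and 3.77 to 23.5 CPM in the subclones, higher in 4 of 7. Cd68 was at 2.74 and 1.38 to 7.49 CPM, higher in 2 of 7. Lyz2 was at 0.498 and 0 to 4.41 CPM, higher in 3 of 7, and none of these 3 was called. Lymphocyte markers were at 0 CPM in the 3H3P-labelled library and at most 0.0662 CPM in a subclone, so none was tested. The part of fibroblast-like RNA in the levels of Snai1, Twist2 and Zeb2 was not tested, and 5 of the fibroblast markers also stand in the mesenchymal list.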

How the data were processed

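STAR, RSEM, FastQC and DESeq2, with the build GRCm38 (mm10), are listed in the submitters' processing notes without a role, and no version was given. Per the labels' protocols, a strand-keeping NEBNext kit was used on total RNA. The deposited expected counts are RSEM's estimates, which divide ambiguous reads between genes. The deposited TPM is scaled by RSEM's effective length, and the authors' mean transcript lengths were used as deposited.

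Expected counts were rounded and tested with edgeR 4.0.16 (R 4.3.3; quasi-likelihood F test, filterByExpr by group, TMM, Benjamini-Hochberg over 14634 genes, called at adjusted p under 0.05). Since 3H3P has 1 library, the filter passes a gene with enough counts in any 1 library. Genes low in 1 group therefore entered through the other group alone. All 8 libraries entered, leaving 6 residual degrees of freedom, all from the subclones. Nothing says how the subclones relate to separate tumours, so p-values measure only the spread between these libraries. No 2 libraries were alike to within counting error (chi-square per degree of freedom 11.9 to 94.1 over 21 subclone pairs). Standard errors are the log2 fold change divided by the square root of F. A count of 0 allows up to 3 counts, and intervals and floors cover counting error only. Alternatives were library size alone, upper-quartile scaling, DESeq2 1.42.0, limma-voom (limma 3.58.1), limma on log2(TPM + 0.1) and log2(TPM + 1), no filter, a mean CPM of 1 or more, and leaving out each subclone. Correlations used exact permutation over 5040 pairings (scipy 1.17.1). Permutation takes the subclones as exchangeable, whereas subclones 7 and 9 (chi-square per degree of freedom 11.9) and 6 and 8 (17.7) were the most alike.

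The members and lists were chosen with earlier results of these data known. Named genes were the 10 members, Trp53, Myc, Il11, Cdh1 and Vim, up to 4 genes per list and direction with the smallest p among those called, and the 3 nearest patterns of called members with a mean CPM of 1 or more. Apob, Cps1, Alb, Afp, Prrx2, Esrp2, Grhl1, Pdgfra, Epcam, Cldn3, Pkp3, Patj, Spint1 and the host-cell markers were named after their values were known. Positions come from GENCODE vM21 (GRCm38), where 9 of 10 members were matched by versioned identifier. On simulated data for 1 library against 7 (13768 genes), the test called 10% of 50 genes changed 2-fold, 38% at 4-fold, 64% at 8-fold and 76% at 16-fold, with 2 false calls. The simulation gave the 3H3P library the spread of the subclones and changed only these genes. It therefore cannot show the rate of false calls in the real comparison. Some named genes are not reported here.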

Additional observations from a re-analysis of the deposited data

Results flagged for a closer look

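Values were marked where the highest or lowest subclone lay farther from the nearest other than Dixon's 95% limit for 7 values allows. Of 56 sets of values examined 15 were marked, and CPM and TPM of a gene are not separate evidence. The limit assumes normally distributed values, whereas these were not on a log scale and several sets were near 0. The number marked therefore cannot be set against a chance rate. Among the regulators, Prrx1 stood at 39.65 CPM and 13.92 TPM in subclone 7, against at most 0.265 CPM and 0.09 TPM in the other subclones. Snai2 was also highest in subclone 7, at 0.3819 CPM and 0.32 TPM, which is 5 counts. Zeb1 was at 31.9 TPM in subclone 6 and Zeb2 at 25.42 TPM in subclone 8, and neither was marked on the CPM scale. Ovol1 (0.8944 CPM, 0.48 TPM) and Grhl2 (2.108 CPM) were both highest in subclone 2. Of the other named genes, Grhl3 (5.676 CPM), Hnf4a (3.53 CPM), Apob (7.06 CPM) and Dcn (0.06922 CPM, 1 count) were highest in subclone 9. Rcor1 was at 128.5 CPM in subclone 2 and Mrc1 at 0.2292 CPM in subclone 7.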

How the results depend on the processing

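Snai1 and Twist2 kept their calls and direction under all 15 alternatives, and Snai2 under the 14 in which it was tested. With a mean CPM of 1 or more required, Snai2 was not tested and 0 regulators were called lower. Zeb1, Zeb2, Prrx1, Ovol1 and Grhl2 were called under none of the alternatives in which they were tested. The sign of Zeb1, never called, turned on the TPM scale (0.24 and 0.23 for pseudocounts of 0.1 and 1), as did that of Ovol1 with limma-voom (−0.18). Over all genes 1072 were called higher by edgeR, 669 to 1185 with 1 subclone left out (669 without subclone 3) and 1675 by DESeq2, where 49.1% of calls were higher instead of 38.3%. Il11 was called by DESeq2 alone (adjusted p = 0.00379; up to 0.430 over all alternatives). The junction and keratin genes called lower numbered 9 to 14 over the alternatives, with 0 higher under each. Other list counts moved by over 1.5 times under some alternative. Upstream signals called higher were 0 to 5 (2 by edgeR) and lower 4 to 8 (7), further mesenchymal-side regulators lower 1 to 3 (2) and epithelial-side regulators higher 0 to 2 (2). Mesenchymal genes were called higher 1 to 3 times (1) and lower 1 to 2 (2), hepatocyte markers lower 4 to 9 (5), fibroblast markers higher 1 to 3 (1), macrophage markers lower 0 to 2 (1) and endothelial markers 0 to 1 in each direction (0). Leaving out 1 subclone gave r of 0.791 to 0.951 for Zeb2 with Il11 and 0.792 to 0.979 with Vim. No paired analysis was possible because 3H3P has 1 library and its label carries no number. Depth limits Twist1, Esrp1, Ovol1, Grhl2 and Snai2, whose values rest on few or 0 counts.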
